A study of Sus scrofa with 12 samples.

Results

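Sirolimus-eluting stents (SES) were compared with bare metal stents (BMS) in the coronary artery wall of pigs. The comparison took the arrays whose labels give either stent type, which are 8 of the 12 in the study, with 4 arrays a group. All segments were collected 28 days after angioplasty and implantation. Tissue was dissected by hand from around the stent, between 10 and 20 mg of it was homogenised, and total RNA was amplified, labelled with biotin and hybridised to Affymetrix porcine arrays. All animals were Yorkshire farm pigs, and the sources used here do not give their age or sex.

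The BMS group held 2 pigs. The first gave BMS 1 from the right coronary artery (RCA) and BMS 2 from the left anterior descending artery (LAD), and the second gave BMS 3 (RCA) and BMS 4 (LAD). The SES group held 2 other pigs. The first gave SES 1 from the left circumflex artery (LCX) and SES 2 (RCA), and the second gave SES 3 (RCA) and SES 4 (LAD). Each analysed pig carried only 1 stent type among these segments, so pig and stent cannot be told apart within an animal, and p-values rest mostly on the spread between segments. An unstented artery was not analysed here, and the drug dose and stent coating were not stated in the labels. The 4 arrays of zotarolimus-eluting stents (ZES) entered the model only to share the estimate of the spread.

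A stent crushes the endothelium and stretches the media, the muscular layer of the artery. The wall responds with clot formation, entry of leukocytes, and movement and division of smooth muscle cells, which lose contractile proteins and lay down matrix as a neointima. Sirolimus binds the immunophilin FKBP12, encoded by FKBP1A, and the pair inhibits the kinase complex mTORC1, which couples nutrients and growth factors to protein synthesis and the cell cycle. The drug is known to slow the growth of smooth muscle cells and the clonal growth of T cells, and it also reaches endothelial cells that have to cover the stent again.

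The tissue carried the markers of an artery wall. The smooth muscle actin ACTA2 measured between 15.31 and 16.17 on the BMS arrays and between 13.44 and 15.44 on the SES arrays, on the log2 scale of the deposited signal. The endothelial marker PECAM1, the fibroblast markers DCN and LUM and the macrophage marker AIF1 were above background on all 8 arrays. Of the other endothelial markers fixed for this check, CDH5 was not above background on every BMS array, and VWF is not given here. Background is the 95th percentile of control probe sets for sequences that had not been added. It averaged 5.51 on the BMS and 4.72 on the SES arrays, with 64.5% and 69.6% of probe sets above it. Counts above background therefore rest on a bar that is higher on average in BMS. The heart muscle marker MYL2 was above background on all 4 BMS arrays and on 3 of the SES arrays, with 10.93 on SES 4 as its highest value, and TNNI3 was listed at 0 on SES 2. The names MYH11, CD3D, MS4A1 and ADIPOQ, fixed as further markers, were not among the genes tested.

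Technical controls differed between the groups. The hybridisation spike-in controls had a mean log2 signal of 16.30 ± 0.38 (SD, n = 4) on the BMS arrays and 15.09 ± 0.43 (SD, n = 4) on the SES arrays, without overlap. The signal at the 3′ end of the GAPDH control exceeded that at the 5′ end by 4.16 ± 0.50 in BMS and 2.71 ± 0.35 in SES (SD, n = 4 each), also without overlap. Both differences gave p = 0.0286 in a two-sided exact permutation test, the smallest p that 4 arrays against 4 allow, and 0.05 after adjustment over 7 control measures. That test exchanges segments as if they were independent, and with 2 pigs against 2 no exact test over pigs could pass the threshold. Between 41 and 280 probe sets were listed at 0 on a BMS array and between 289 and 865 on an SES array. These controls separate the groups as the stents do, so their part in each result cannot be told apart from that of the stent, and with either of the first pair as a covariate no probe set passed. Across the probe sets tested between the stents, Pearson correlations were 0.791 to 0.906 between segments of 1 pig. They were 0.775 to 0.898 between pigs with the same stent and 0.760 to 0.825 between pigs with different stents. These values only describe arrays that share their platform and scaling.

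At an adjusted p under 0.05, 114 of 16799 probe sets differed between SES and BMS, which is 0.679% of those tested. Of these, 83 were higher in SES (0.494%) and 31 lower (0.185%), and the SES and BMS arrays did not overlap in 82 of the 83 and 30 of the 31, which a call on the same arrays nearly implies. Over all genes tested, 4.90% had all SES arrays above all BMS arrays and 4.73% all below. At an unadjusted p under 0.05 there were 2408. Named through probe sets with a single gene symbol, with 1 probe set a gene, 52 of 5793 genes passed (0.898%), with 39 higher (0.673%) and 13 lower (0.224%). The median difference was 3.27 over the genes that were higher and -2.47 over those that were lower, on the log2 scale. The remaining 51 called probe sets have no single symbol in the array's annotation and are not named here.

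The 52 genes were also set out by animal and by artery, as a description only, since they were called on the same arrays. All 52 had 1 sign in the 4 pairings of an SES pig with a BMS pig, as had 2711 of the 5793 genes tested, and all 52 had 1 sign in right and in left coronary segments. The call itself nearly fixes both counts. Between the 2 SES pigs 6 probe sets differed (0.0357% of those tested), and between the 2 BMS pigs 0. At an unadjusted p under 0.05 by limma the order was the other way, with 563 between the SES pigs and 1444 between the BMS pigs. The difference was larger in the right than in the left segments for 40 of the 52 genes, against 60.4% of all genes tested. Its median size was 3.42 in the right and 2.37 in the left segments. The difference between the sides was tested with an interaction term, for which limma called 0 probe sets (smallest adjusted p = 0.593, 862 at an unadjusted p under 0.05).

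The count of calls moved with single arrays. Without SES 3 no probe set passed, with 1765 at an unadjusted p under 0.05, and without SES 1 or SES 2 there were 11 and 13. Without BMS 1, BMS 2 or BMS 4 the count was 39, 55 and 175, and without ZES 4 it was 184. Without SES 4 it was 415, with 162 higher and 253 lower, and 51 of the 52 genes were still called. SES 4 was the array nearest to BMS in most called genes: it was the lowest SES array in 30 of the 39 genes that were higher (31.2% of all genes tested) and the highest in 9 of the 13 that were lower (35.1%). Each call named below is lost without SES 3 and with either control covariate, while its direction stays. Each is also lost without the first SES pig (SES 1 and SES 2), and with the left coronary segments alone. In both of these fits fewer arrays enter, and 0 of the 52 genes were still called.

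The treatment of the pig mattered as well. With 1 mean per pig, 25 of the 42 called genes named here were still called. The 17 that were not are LTB, SH2D1A, SPIB, SLA-DQA1, BTG2, GJA4, COL4A2, TIMP1, PNP, ASL, TM4SF1, PICK1, POLR2B, CCNG2, STIM2, UPK1B and PARM1, with adjusted p from 0.0503 for SPIB to 0.121 for TM4SF1. With the pig as a fixed term, with arrays taken as independent or with the side as a covariate, the calls of SPIB, ICAM1, GJA4, SLC38A1, COL4A2, TM4SF1, PICK1, CCNG2 and UPK1B were lost in at least 1 of these fits, at adjusted p between 0.0507 for GJA4 and 0.0588 for SPIB. With the 8 arrays alone the calls of AQP1, COL4A2, PICK1, CCNG2 and UPK1B were lost, at adjusted p between 0.0502 for AQP1 and 0.0814 for UPK1B.

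**Figure D1:**
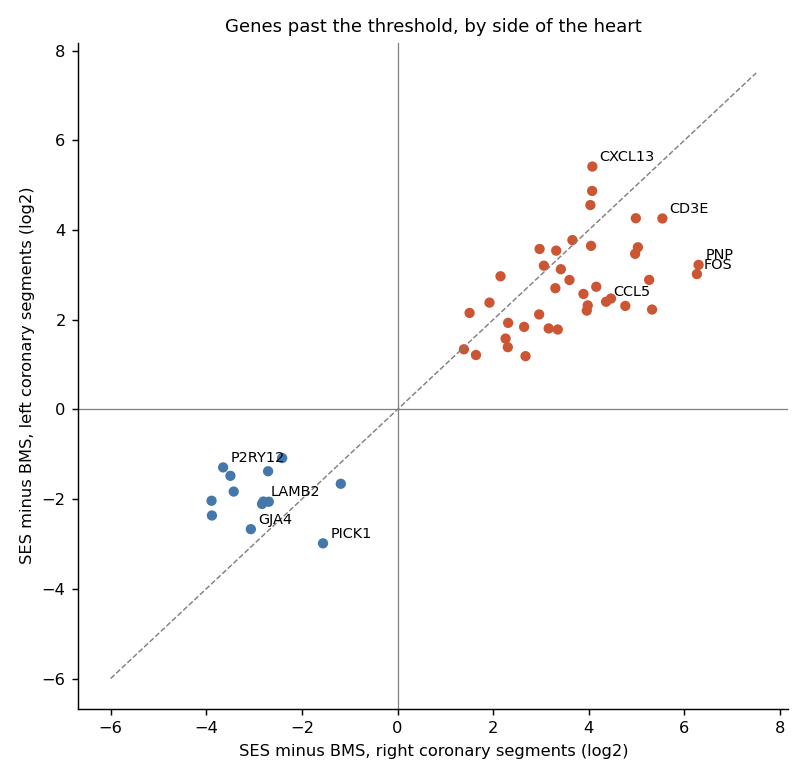
Each point is 1 of the 52 genes past the threshold, with the SES minus BMS difference in the right coronary segments on the x axis and in the left coronary segments on the y axis, both in log2 units; orange points are higher in SES, blue points lower, and the dashed line marks equal differences. All points lie in the quadrants where both sides have the same sign, which the call on the same arrays nearly fixes, and 40 of the 52 differ more in the right than in the left segments.

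Chemokines, the secreted proteins that draw leukocytes into tissue, were mostly higher in SES. Of 17 measured chemokine genes 14 had a positive difference and 4 rose past the threshold (CXCL13, CCL5, CCL2 and CCL24), with none lower, beside 0.673% of all genes. The list's median difference was 1.67, where the median over all genes tested was -0.01. It was 0.92 with the spike-in signal and 1.23 with the GAPDH difference as covariate. At an unadjusted p under 0.05, 12 of the 17 were higher, beside 8.18% of all genes. In 5 of the 17 every SES array lay above every BMS array, beside 4.90% of all genes. In whole segments, more cells of a type and more RNA per cell cannot be told apart, here and in what follows.

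CXCL13, which draws B cells into lymphoid follicles, had log2 signals of 6.39, 4.77, 8.07 and 6.29 on BMS 1 to BMS 4 and 10.88, 10.34, 12.26 and 11.01 on SES 1 to SES 4. All SES segments lay above all BMS segments, and 3 of the 4 BMS values were above background, so the fold depends in part on an unmeasured level. The difference was 4.74 ± 0.68 (SE), a 26.8-fold higher signal (adjusted p = 0.00725). A second CXCL13 probe set, with weaker signal, gave 1.88 ± 0.85 and did not pass (adjusted p = 0.321).

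CCL5, which attracts T cells and monocytes, measured 7.48, 8.86, 8.95 and 9.01 in the BMS segments and 11.47, 12.77, 12.38 and 11.19 in the SES segments. The groups did not overlap, and the highest values were those of the right coronary segments SES 2 and SES 3. CCL5 was 3.38 ± 0.46 (SE) higher, or 10.4-fold (adjusted p = 0.00549), with 4.36 in the right and 2.40 in the left segments. CCL2, the main attractant of monocytes, ran from 10.80 to 11.81 in BMS and from 13.19 to 14.02 in SES. Its 2.24 ± 0.30 (SE) higher signal, 4.73-fold, had the narrowest error of the 4 chemokines (adjusted p = 0.00549).

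CCL24, an attractant of eosinophils made by macrophages, measured 9.90, 9.50, 9.17 and 11.46 in BMS and 13.18, 14.21, 13.79 and 12.73 in SES. BMS 4 was the highest of its group and still lay below every SES segment, and the rise was 3.47 ± 0.59 (SE), 11.1-fold (adjusted p = 0.0173). With the spike-in signal as covariate the 4 differences were 6.35 for CXCL13, 2.06 for CCL5, 1.64 for CCL2 and 2.20 for CCL24. None of those passed.

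Among 14 interleukins and other cytokines, 11 were positive and 1 rose, beside 0.673% of all genes. That gene was LTB (lymphotoxin beta), which forms the membrane complex that organises lymphoid tissue. LTB measured 6.05, 6.23, 4.70 and 6.17 in BMS and 8.08, 8.34, 9.60 and 10.09 in SES. Both segments of the second SES pig were above both of the first, and 3 of the 4 BMS values were above background. The rise was 3.24 ± 0.58 (SE, adjusted p = 0.0204, and 0.0629 with means per pig). The inflammatory cytokines IL1A and IL1B had differences of 2.73 ± 0.91 and 2.18 ± 0.88 (SE) that did not pass (adjusted p = 0.167 and 0.261). BMS 4 reached 7.58 and 9.25, and SES 4 measured 6.90 and 7.89. Second probe sets gave 3.13 ± 1.02 for IL1A and 4.50 ± 1.40 for IL1B without passing. When the probe sets of each gene were averaged, which leaves fewer features, IL1A differed by 2.93 (adjusted p = 0.0449) and IL1B by 3.34 (adjusted p = 0.148). Of 5 chemokine receptors none passed. CXCR6 and CXCR4 differed by 2.63 ± 1.08 and 1.58 ± 0.65 (SE), with adjusted p = 0.265 and 0.269.

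**Figure D2:**
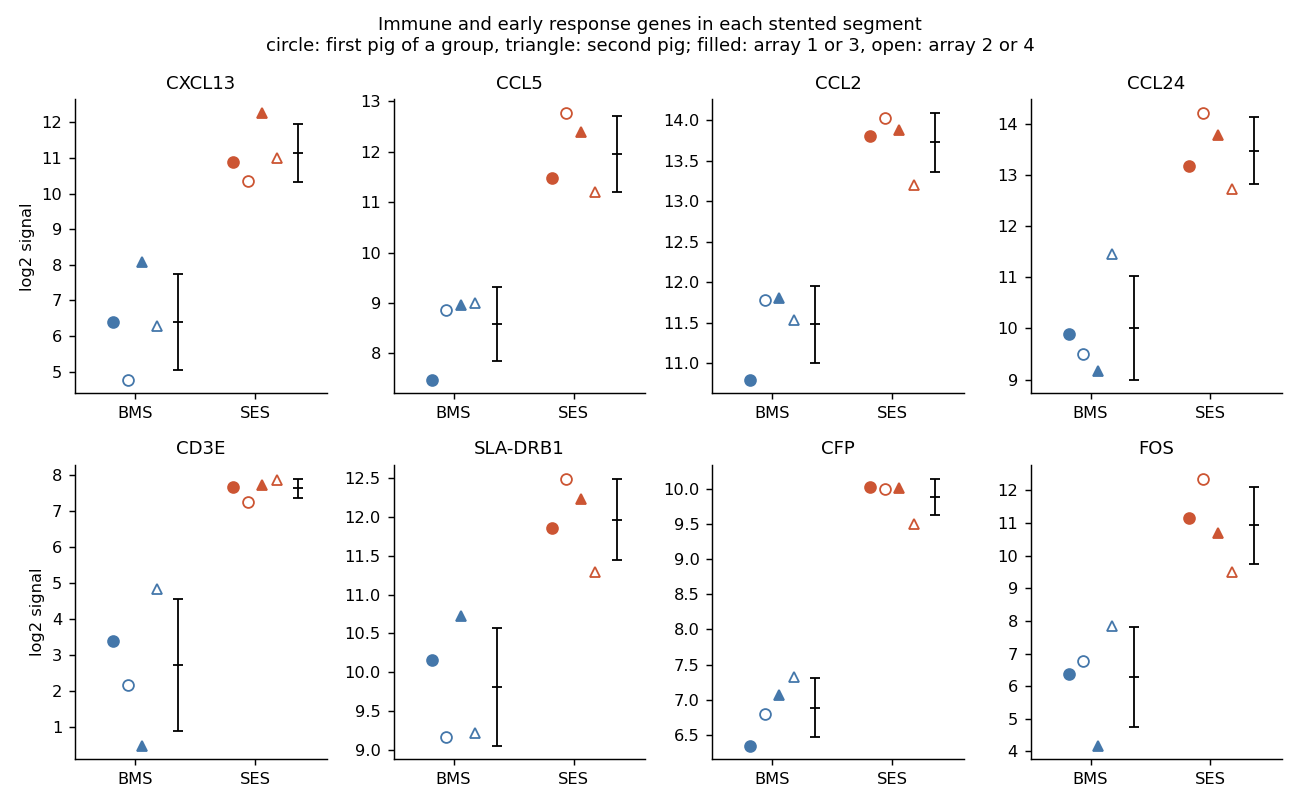
Log2 signal (y axis) of 8 immune and early response genes in each BMS (blue) and SES (orange) segment; circles are the first pig of a group, triangles the second, and the black bars give the mean ± SD of 4 segments. In each of the 8 genes all SES points lie above all BMS points, as in 4.9% of all genes tested. All 8 were called on the same arrays, which nearly fixes this. CXCL13 lies at 10.34 to 12.26 against 4.77 to 8.07 and CD3E at 7.24 to 7.87 against 0.50 to 4.83.

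T and NK cell markers were higher as a list. Of 15 measured genes 13 were positive and 2 rose past the threshold, beside 0.673% of all genes, with a median difference of 1.54. Their mean level lay between 4.84 and 5.35 on the BMS arrays and between 6.41 and 7.16 on the SES arrays. Background was 5.27 to 5.96 on the BMS arrays, and the list mean lay below it on each of them. The size of the list's difference therefore depends in part on an unmeasured level. With the spike-in signal as covariate the list's median was 0.13, and with the GAPDH difference 1.89.

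CD3E, a signalling chain that T cells carry with their antigen receptor, stayed at background level in the BMS segments, where it measured 3.39, 2.19, 0.50 and 4.83. In the SES segments it measured 7.66, 7.24, 7.72 and 7.87, above background in all 4. Since the BMS values give only a bound, the SES signal was at least 4.33-fold higher, taken as the SES mean over the mean of the background or the gene's own signal on each BMS array, whichever was higher. The fit across all genes gave adjusted p = 0.0172. The SD of 0.27 over the SES segments was small, with both animals and all arteries close together.

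SH2D1A, the adaptor SAP of T and NK cell receptors, measured 4.58, 3.95, 4.94 and 6.09 in BMS and 9.76, 8.07, 8.76 and 7.82 in SES. It rose by 3.72 ± 0.75 (SE, adjusted p = 0.0290, and 0.0538 with means per pig). Only 1 of the 4 BMS values was above background, so no fold is given. Of other members, IL7R, the receptor for interleukin-7, differed by 3.70 ± 1.05 and CD3G, another receptor chain, by 2.10 ± 0.65 (SE), and neither passed (adjusted p = 0.106 and 0.139). IL7R ran from 0.86 to 7.23 in BMS, so that BMS 4 overlapped the SES range of 6.96 to 8.57.

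Of 6 B and plasma cell markers none passed at the adjusted or at the unadjusted threshold. CD79B, part of the B cell receptor, measured 5.82 and 5.26 in the first SES pig and 8.97 and 8.03 in the second, against 4.37 to 6.46 in BMS (adjusted p = 0.461). SPIB, a transcription factor of B cells and plasmacytoid dendritic cells, was not among these 6 markers. It measured 4.42, 6.70, 4.04 and 4.66 in BMS and 8.56, 7.87, 10.52 and 9.73 in SES. It rose by 4.22 ± 0.93 (SE, adjusted p = 0.0471, and 0.0503 with means per pig), and was again higher in the second SES pig than in the first. Only 1 of the 4 BMS values of SPIB was above background.

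MHC class II molecules present peptides to CD4 T cells. Of 11 genes of class II and antigen presentation 9 were positive, 2 rose (beside 0.673% of all genes) and none fell, with a median of 0.70. SLA-DRB1, a class II beta chain, measured 10.15, 9.16, 10.73 and 9.22 in BMS and 11.85, 12.49, 12.23 and 11.29 in SES. SLA-DQA1, an alpha chain, ran from 10.41 to 12.27 in BMS and from 12.31 to 13.43 in SES. They rose by 2.15 ± 0.41 and 1.83 ± 0.39 (SE), with adjusted p = 0.0255 and 0.0388, and the gap between the groups was narrow for SLA-DQA1. With means per pig SLA-DQA1 had adjusted p = 0.0589. SLA-DQB1 and SLA-DRA, their partner chains, differed by 2.13 ± 0.50 and 1.65 ± 0.44 (SE) without passing (adjusted p = 0.0578 and 0.0873). Class II genes resemble one another in sequence, and cross-hybridisation between their probe sets was not tested. Of 12 genes of the class I pathway none passed, with a median of 0.20.

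Myeloid markers pointed both ways. Of 22 markers of monocytes, macrophages and dendritic cells, 10 were positive and 12 negative, none passed, and the median was -0.17. CHI3L1, a secreted chitinase-like protein of macrophages, measured 10.16 to 12.19 in BMS and 12.58 to 13.95 in SES, a difference of 2.29 ± 0.53 (SE) just outside the threshold (adjusted p = 0.0569). The mannose receptor MRC1 and the endotoxin co-receptor CD14 differed by 2.09 ± 0.68 and 0.90 ± 0.40 (SE), and the Fc receptor chain FCER1G by -0.79 ± 0.31 (adjusted p = 0.157, 0.308 and 0.245). The haemoglobin scavenger CD163 and AIF1 differed by 0.85 ± 0.45 and -0.61 ± 0.41 (SE), with adjusted p = 0.411 and 0.524.

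Neutrophil genes had a median difference of 1.71 over 7 genes, which is the value of MMP9, and none passed. Of the 7 genes 4 were positive and 3 negative, with -1.86 as the lowest. The 4 named below are the positive ones. The list's median was 3.86 with the GAPDH difference as covariate. The calgranulin S100A8 measured 11.34 and 12.35 in the first SES pig and 8.91 and 6.35 in the second, while BMS ran from 1.92 to 7.74. SES 4 lay inside the BMS range, and the difference of 5.20 ± 1.58 (SE) gave adjusted p = 0.129. S100A12 and S100A9, which are related calcium-binding proteins, differed by 3.48 ± 1.29 and 2.87 ± 1.10 (adjusted p = 0.210 and 0.230). The gelatinase MMP9 differed by 1.71 ± 0.87 (adjusted p = 0.387).

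Of 17 complement genes 1 rose, beside 0.673% of all genes, and none fell. CFP encodes properdin, which stabilises the C3 convertase of the alternative pathway and is made by myeloid cells. It measured 6.35, 6.80, 7.07 and 7.32 in BMS and 10.03, 10.00, 10.02 and 9.50 in SES. The 4 SES segments lay within a narrow band far above BMS, and the rise was 3.00 ± 0.41 (SE), 8.01-fold (adjusted p = 0.00549). CD59, which blocks the membrane attack complex, differed by -1.14 ± 0.43 (SE) without passing (adjusted p = 0.218).

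Immediate early genes, which are switched on within minutes of a stimulus, were mostly higher in SES. Of 23 measured genes 19 were positive and 3 rose, beside 0.673% of all genes, with a median of 1.08. In 6 every SES segment lay above every BMS segment, beside 4.90% of all genes. FOS, a subunit of the AP-1 transcription factor, measured 6.37, 6.77, 4.18 and 7.85 in BMS and 11.15, 12.36, 10.71 and 9.49 in SES. SES 4 was the lowest SES value and still above BMS 4, and 3 of the 4 BMS values were above background. FOS rose by 4.64 ± 0.78 (SE, adjusted p = 0.0167). Its difference was 6.26 in the right and 3.02 in the left segments.

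IER3, an early gene that modulates cell survival, measured 7.33, 8.24, 5.75 and 7.92 in BMS and 10.85, 12.12, 11.61 and 9.76 in SES, a rise of 3.77 ± 0.58 (SE) or 13.7-fold (adjusted p = 0.0104). BTG2, an antiproliferative gene, was not above background in any BMS segment, with values between 1.24 and 3.94, and measured 7.83, 8.09, 7.78 and 5.88 in SES. Its signal was at least 3.69-fold higher by the same bound as for CD3E (adjusted p = 0.0185). The transcription factor KLF4 differed by 1.81 ± 0.45 (SE) without passing (adjusted p = 0.0761), with SES 4 at 9.26 inside the BMS range.

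All 7 genes of NF-kappaB and its feedback inhibitors were positive and none passed, with a median of 0.61, and of 0.31 and 0.38 with the spike-in signal and the GAPDH difference as covariates. NFKBIA, the inhibitor that NF-kappaB itself induces, measured 11.10 to 12.32 in BMS and 12.52 to 13.44 in SES, a difference of 1.35 ± 0.31 (SE, adjusted p = 0.0569). SOD2, the mitochondrial superoxide dismutase, and TNFAIP6, a hyaluronan-binding protein of inflamed tissue, differed by 1.45 ± 0.36 and 2.34 ± 0.89 (SE), with adjusted p = 0.0688 and 0.222. Of 9 genes of pattern recognition and the inflammasome none passed, and CASP1, the protease that matures interleukin-1 beta, differed by -1.35 ± 0.42 (SE, adjusted p = 0.139).

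Genes of the interferon response were mostly negative. Of 22 genes 15 were negative and 7 positive, none passed, and the median was -0.72. IRF7 and OAS1, induced by type I interferon, differed by -1.43 ± 0.41 and -1.32 ± 0.44 (SE, adjusted p = 0.105 and 0.169), while SAMHD1 and GBP1 differed by 0.995 ± 0.33 and 1.31 ± 0.46 (adjusted p = 0.169 and 0.186). With the spike-in signal as covariate the list's median was -0.10, and with the GAPDH difference -0.94. UBD, a ubiquitin-like protein induced by interferon gamma and TNF, rose by 3.08 ± 0.51 (SE), 8.46-fold (adjusted p = 0.0157). UBD ran from 8.62 to 11.45 in BMS and from 11.62 to 13.20 in SES, and was chosen after its values were seen.

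Leukocyte adhesion was represented by 10 genes, of which 6 were positive, 1 rose (beside 0.673% of all genes) and none fell. ICAM1, the endothelial ligand of leukocyte integrins, measured 7.23, 7.78, 7.45 and 9.29 in BMS and 10.42, 11.29, 10.10 and 10.20 in SES. It rose by 2.57 ± 0.55 (SE), 5.92-fold (adjusted p = 0.0401), and BMS 4 was again the highest of its group. ITGB2, the beta chain of those integrins, differed by 3.16 ± 0.82 (SE) and did not pass (adjusted p = 0.0823), although the BMS maximum of 10.17 lay below the SES minimum of 10.52. MADCAM1, which binds gut-homing lymphocytes, was not above background in BMS and was at least 2.08-fold higher in SES, with adjusted p = 0.230.

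Among 10 genes of nucleotide salvage and breakdown 2 rose, beside 0.673% of all genes, and none fell. PNP, which splits purine nucleosides, measured 3.58, 5.03, 7.42 and 9.86 in BMS and 11.06, 11.97, 11.62 and 10.27 in SES. The BMS values of PNP were widely spread, with BMS 4 just below SES 4, and its rise was 4.76 ± 0.96 (SE, adjusted p = 0.0301). BMS 1 and BMS 2 were not above background for PNP, so no fold is given.

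CDA, which deaminates cytidine, measured 7.43, 3.72, 6.83 and 8.01 in BMS and 9.92, 11.25, 11.07 and 10.92 in SES, a rise of 4.29 ± 0.82 (SE, adjusted p = 0.0259) with 3 of the 4 BMS values above background. The salvage enzyme HPRT1 and the pyrimidine-degrading DPYD differed by 1.33 ± 0.37 and 1.08 ± 0.35 (SE) without passing (adjusted p = 0.102 and 0.155). For both, all SES segments lay above all BMS segments.

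Of 29 genes of glycolysis, glucose transport and hypoxia 21 were positive, 2 rose (beside 0.673% of all genes) and none fell, with a median of 0.43. HK3, the hexokinase found mainly in myeloid cells, measured 8.19, 6.69, 8.07 and 9.32 in BMS and 12.68, 12.89, 11.47 and 10.62 in SES. The first SES pig had the higher values, and the rise was 3.85 ± 0.77 (SE), 14.4-fold (adjusted p = 0.0290). ARRDC4, an alpha-arrestin that lowers glucose uptake, measured 9.22, 10.10, 9.70 and 11.38 in BMS and 13.54, 13.34, 13.54 and 12.58 in SES, a rise of 3.15 ± 0.42 (SE) or 8.86-fold (adjusted p = 0.00549). The glucose transporters SLC2A3 and SLC2A1 differed by 3.04 ± 0.72 and 2.12 ± 0.57 (SE) without passing (adjusted p = 0.0610 and 0.0893), again with no overlap between groups.

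GK, glycerol kinase, ran from 6.60 to 7.96 in BMS and from 9.93 to 11.20 in SES and rose by 3.23 ± 0.57 (SE, adjusted p = 0.0189). A second GK probe set differed by 0.49 ± 0.84, and the mean over both by 1.86, and neither passed. FBP1, an enzyme of gluconeogenesis chosen after its values were seen, rose by 3.44 ± 0.63 (SE, adjusted p = 0.0234), from 10.30 to 13.62 in BMS to between 14.38 and 15.24 in SES.

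Of 20 genes of amino acid transport and its stress response 1 rose, beside 0.673% of all genes, and the median was -0.02. SLC38A1, which carries glutamine into cells, measured 7.21, 5.40, 5.25 and 5.24 in BMS and 9.09, 9.65, 9.45 and 8.62 in SES, a rise of 3.43 ± 0.73 (SE, adjusted p = 0.0388) with 2 of the 4 BMS values above background. Its second probe set differed by 3.55 ± 1.04 (SE) and did not pass (adjusted p = 0.118). ARG1, which breaks down arginine, had the widest BMS spread, from 2.21 to 12.29, and differed by 5.49 ± 1.51 (SE) without passing (adjusted p = 0.0997). PTGES, which makes prostaglandin E, differed by 1.64 ± 0.42 (SE, adjusted p = 0.0818).

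Other genes rose as well. STEAP4, a metalloreductase of inflamed tissue, measured 5.40, 5.66, 5.53 and 7.81 in BMS and 10.16, 10.80, 10.66 and 9.09 in SES, a rise of 4.07 ± 0.77 (SE, adjusted p = 0.0255) with 3 of the 4 BMS values above background. PARM1, a membrane glycoprotein, rose by 4.47 ± 0.90 (SE, adjusted p = 0.0295), with 4.41 and 2.51 in the first BMS pig, 7.98 and 7.26 in the second and 9.31 to 10.42 in SES. The first BMS pig was not above background for it. UPK1B, a uroplakin, was not above background in BMS and was at least 1.61-fold higher in SES, where it measured 5.95 to 6.44 (adjusted p = 0.0455).

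Chosen after their values were seen were also CTSC, CCNG2 and STIM2. CTSC, the protease cathepsin C that activates granule proteases of leukocytes, rose by 2.54 ± 0.46 (SE, adjusted p = 0.0221). CCNG2, an atypical cyclin linked to cell cycle arrest, rose by 1.93 ± 0.42 (SE, adjusted p = 0.0437). STIM2, a calcium sensor of the endoplasmic reticulum, ran from 6.66 to 7.26 in BMS and from 8.78 to 9.41 in SES and rose by 2.12 ± 0.42 (SE, adjusted p = 0.0290).

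Endothelial genes split. Of 20 measured markers 12 were positive and 8 negative, 2 fell past the threshold, beside 0.224% of all genes, and none rose, with a median of 0.33. GJA4, the gap junction protein connexin 37 of arterial endothelium, measured 8.63, 7.36, 8.47 and 9.29 in BMS and 5.30, 5.16, 5.81 and 6.004 in SES. The groups were far apart, and GJA4 fell by 2.87 ± 0.61 (SE), a 7.31-fold lower signal (adjusted p = 0.0401). AQP1, a water channel of endothelium that smooth muscle also makes, measured 14.88, 12.93, 12.17 and 12.52 in BMS and 9.86, 10.80, 9.39 and 11.92 in SES, and fell by 2.63 ± 0.55 (SE), 6.19-fold (adjusted p = 0.0366).

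SES 4 came close to the lowest BMS value of AQP1, and a second, weaker AQP1 probe set differed by -1.16 ± 1.08 (SE, adjusted p = 0.662). The mean over both differed by -1.89 (adjusted p = 0.108). The junction proteins CDH5 and ESAM differed in opposite directions, by 1.88 ± 0.69 and -1.75 ± 0.78 (SE), and neither passed (adjusted p = 0.210 and 0.307). The level of CDH5 in BMS was above background on 2 of 4 arrays only.

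Genes of coagulation and fibrinolysis held 19 measured members, of which 12 were positive and 1 fell, beside 0.224% of all genes. P2RY12, the ADP receptor known from platelets and from tissue macrophages, measured 14.55, 12.36, 13.65 and 11.34 in BMS and 10.37, 10.36, 10.54 and 10.74 in SES. The SES segments were nearly equal while the BMS right coronary segments were highest, and the gene fell by 2.47 ± 0.48 (SE), 5.54-fold (adjusted p = 0.0287). Its difference was -3.65 in the right and -1.29 in the left segments.

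F3, tissue factor, which starts coagulation, measured 2.24 and 1.91 in the BMS right coronary segments, 6.80 and 7.27 in the BMS left segments and 10.59, 10.42, 8.89 and 7.36 in SES. All SES values lay above BMS, but the difference of 4.76 ± 1.31 (SE) did not pass (adjusted p = 0.0978). The right coronary values of F3 lay below the background of 5.96 on BMS 1 and 5.35 on BMS 3. The size of its difference therefore depends in part on an unmeasured level. The protease inhibitor TFPI2 and the plasminogen activator PLAT differed by 1.97 ± 0.46 and 2.13 ± 0.57 (SE), without overlap and without passing (adjusted p = 0.0598 and 0.0906).

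Smooth muscle contractile markers were lower as a list, without a call. Of 35 measured genes 32 were negative, none passed, 23 were lower at an unadjusted p under 0.05 (7.54% of all genes) and in 8 every SES segment lay below every BMS segment (4.73% of all genes). The median difference was -1.25. The mean level of the list was 11.49, 11.67, 10.99 and 10.96 on BMS 1 to BMS 4 and 9.21, 9.46, 9.46 and 11.13 on SES 1 to SES 4. SES 4 lay inside the BMS range and the other SES segments below it. Without SES 4 the median difference was -1.92, with the spike-in signal as covariate -0.51, and with the GAPDH difference -1.68.

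CNN1, the thin-filament protein calponin, measured 13.04, 13.51, 11.91 and 11.45 in BMS and 7.68, 8.42, 9.37 and 11.86 in SES. SES 4 lay above BMS 4, and the difference of -3.15 ± 0.81 (SE) did not pass (adjusted p = 0.0804). Without SES 4 it was -4.01. PLN, phospholamban, which restrains the calcium pump, differed by -2.75 ± 0.63 (SE), with 10.19 to 12.14 in BMS and 7.93 to 9.42 in SES (adjusted p = 0.0569). KCNMB1, the potassium channel subunit of smooth muscle, and ITGA8, its integrin alpha chain, differed by -2.80 ± 0.67 and -1.73 ± 0.44 (SE, adjusted p = 0.0634 and 0.0776), and in both SES 4 lay inside the BMS range. ACTA2, TAGLN and DES, the marker genes of the tissue check, differed by -1.52 ± 0.44, -2.16 ± 0.62 and -4.22 ± 1.22 (SE), with adjusted p = 0.110, 0.109 and 0.111. Averaged over all its probe sets, DES differed by -0.46.

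Heart muscle markers moved with SES 4 too. Of 17 measured markers 7 were positive and 10 negative, none passed and the median was -0.26. Their mean level was 5.61, 5.47 and 5.57 on SES 1 to SES 3 and 8.34 on SES 4, while BMS ran from 5.66 to 7.72, with BMS 4 highest. Of the defining markers, MYH7 measured 9.94 and MYL2 10.93 on SES 4, and MYL2 ran from 0.50 to 5.28 on the other SES arrays. TNNC1, troponin C of slow and heart muscle, differed by -3.11 ± 0.98 (SE) and XIRP1, a protein of heart muscle junctions, by 2.72 ± 1.17, neither passing (adjusted p = 0.144 and 0.292). The part of heart muscle tissue in the smooth muscle levels of SES 4 was not tested.

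**Figure D3:**
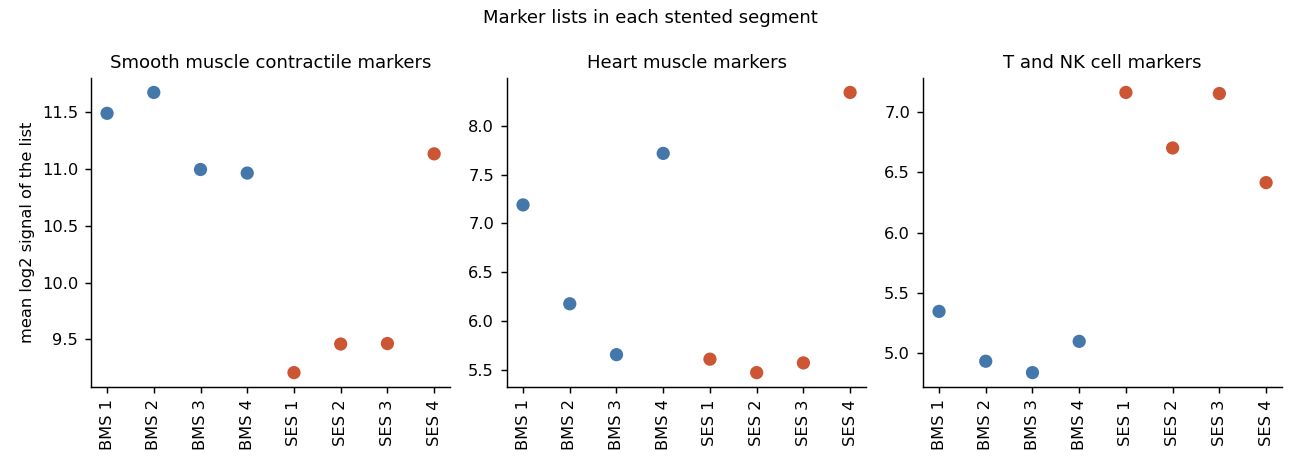
Mean log2 signal (y axis) of the smooth muscle, heart muscle and T and NK cell marker lists in each of the 4 BMS (blue) and 4 SES (orange) segments, 1 point an array. SES 4, at 11.13 for smooth muscle and 8.34 for heart muscle markers, lies apart from SES 1 to SES 3 in both. All SES points of the T and NK cell list, from 6.41 to 7.16, lie above those of BMS. The BMS points of that list lie below the background level of their arrays.

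The basement membrane surrounds each smooth muscle cell and underlies the endothelium. All 6 measured genes of this list were lower and 2 fell past the threshold, beside 0.224% of all genes. The median was -1.04, and -0.17 with the GAPDH difference as covariate. LAMB2, the laminin beta 2 chain, measured 10.61, 10.36, 9.71 and 10.65 in BMS and 7.36, 7.56, 7.15 and 9.54 in SES. It fell by 2.43 ± 0.48 (SE), 5.39-fold (adjusted p = 0.0290). COL4A2, a chain of type IV collagen and also 1 of 12 measured collagens, measured 11.72, 11.73, 11.85 and 11.50 in BMS and 8.998, 8.93, 9.22 and 11.48 in SES. SES 4 was just below the lowest BMS value, and COL4A2 fell by 2.04 ± 0.45 (SE), 4.12-fold (adjusted p = 0.0471). LAMC1, the laminin gamma 1 chain, differed by -0.92 ± 0.39 (SE, adjusted p = 0.286).

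Other matrix genes moved in both directions. Of the 12 collagens COL4A2 alone fell, beside 0.224% of all genes, and none rose. The list's median was -0.06, and COL5A3 and COL1A2 differed by 1.92 ± 0.61 and -1.86 ± 0.64 (SE, adjusted p = 0.1504 and 0.180). Of 33 proteoglycans, elastic fibre and matricellular proteins none passed, with 21 negative and a median of -0.25. SPARC, a collagen-binding matricellular protein, differed by -1.14 ± 0.28 with no overlap (adjusted p = 0.0697). Its relative SPARCL1 and the adhesive protein VTN differed by -2.94 ± 0.78 and -3.85 ± 0.96 (SE, adjusted p = 0.0873 and 0.0722). FN1, fibronectin, differed by 1.53 ± 0.40 (adjusted p = 0.0825), while a second, weaker FN1 probe set gave -0.81 ± 0.66 and the mean over both 0.36.

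Among 22 matrix proteases and inhibitors 1 rose, beside 0.673% of all genes. TIMP1, the main inhibitor of matrix metalloproteases, measured 12.63, 13.15, 12.52 and 12.76 in BMS and 13.91, 14.45, 13.97 and 14.43 in SES. Both groups were tight, and TIMP1 rose by 1.43 ± 0.29 (SE), 2.69-fold (adjusted p = 0.0336). The protease inhibitor A2M differed by -2.25 ± 0.66 (SE, adjusted p = 0.1202).

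Of 11 genes of bone matrix and osteoclasts 6 were negative at an unadjusted p under 0.05, beside 7.54% of all genes, and none passed. The other 5 were positive, up to 1.71, with 1 higher at that unadjusted threshold, beside 8.18% of all genes. The genes named below are all negative ones. The median was -1.09, and -0.26 and -0.20 with the spike-in signal and the GAPDH difference as covariates. CTSK, the collagen-degrading cathepsin K of osteoclasts, ran from 12.19 to 12.80 in BMS and from 10.93 to 11.60 in SES, a difference of -1.17 ± 0.27 (SE, adjusted p = 0.0569). ACP5, the tartrate-resistant phosphatase, and CALCR, the calcitonin receptor, differed by -2.77 ± 0.69 and -3.08 ± 0.86 (SE, adjusted p = 0.0723 and 0.102). In both all SES segments lay below all BMS segments. MGP, which inhibits calcification of the artery wall, differed by -1.09 ± 0.32 (adjusted p = 0.123).

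**Figure D4:**
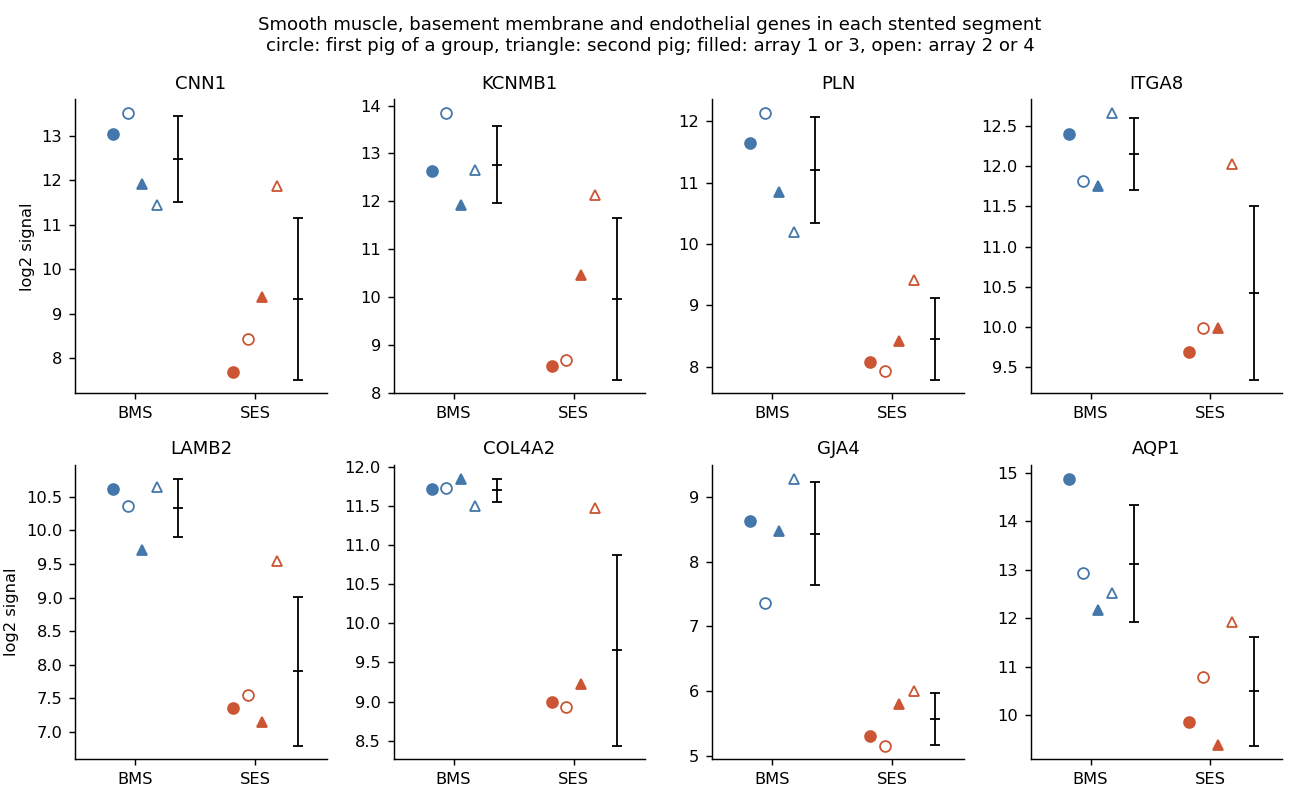
Log2 signal (y axis) of 8 smooth muscle, basement membrane and endothelial genes in each BMS (blue) and SES (orange) segment; circles are the first pig of a group, triangles the second, and the black bars give the mean ± SD of 4 segments. SES 4, the open orange triangle, is the highest SES point in each of the 8 panels, and of these genes LAMB2, COL4A2, GJA4 and AQP1 passed the threshold.

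Fibroblast and adventitial markers had 6 positive and 12 negative members of 18, none of which passed, and a median of -0.35. PDPN, podoplanin, and CLU, clusterin, differed by 2.07 ± 0.48 and 1.25 ± 0.34 (SE, adjusted p = 0.0569 and 0.0893), and the intermediate filament VIM by -1.001 ± 0.29 (adjusted p = 0.115). Growth factors of the vessel wall had 14 negative members of 21 and no call, with FGFR1, a receptor of fibroblast growth factors, at -1.35 ± 0.41 (SE, adjusted p = 0.133) and at -0.69 over all its probe sets. Of 17 genes of the TGF-beta and BMP pathway none passed, with a median of 0.04.

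In the pathway that sirolimus acts on no measured gene passed the threshold, beside 0.898% of all genes. With a share that low, a count of 0 among 30 genes cannot set the pathway apart from other genes. Of 30 genes of the mTORC1 complex, its regulators and drug-binding proteins 15 were positive and 15 negative, none passed and the median was -0.03. At an unadjusted p under 0.05 by limma, 2 were higher and 2 lower, beside 8.18% and 7.54% of all genes. FKBP1A, whose product FKBP12 binds the drug, ran from 11.99 to 12.63 in BMS and from 12.44 to 13.26 in SES. Its difference was 0.63 (95% interval 0.06 to 1.19, adjusted p = 0.291). FKBP1B, the related calstabin, differed by 1.67 (95% interval 0.61 to 2.73, adjusted p = 0.125).

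Cell cycle genes were positive in 21 of 24, with a median of 0.50 and none past the threshold. Only 8 of the 24 had 1 sign in the 4 pairings of an SES pig with a BMS pig, beside 2711 of all 5793 genes. The list's mean level was 6.99, 6.87, 8.54 and 7.77 on BMS 1 to BMS 4. It was 8.28, 7.84, 8.32 and 7.97 on SES 1 to SES 4, so BMS 3 was the highest array. CDKN2B, the kinase inhibitor p15, measured 6.60, 5.60, 6.83 and 6.59 in BMS and 3.21, 1.75, 1.66 and 5.84 in SES, a difference of -3.29 ± 0.99 (SE, adjusted p = 0.123). On SES 1 to SES 3 it lay below the background of 4.88, 4.15 and 4.47, so the size depends in part on an unmeasured level. RRM2, a subunit of the enzyme that makes deoxynucleotides in dividing cells, differed by 1.97 ± 0.82 (adjusted p = 0.269). Of 27 chaperones and genes of the unfolded protein response 18 were positive and none passed. The inducible chaperones DNAJB1 and HSPA6 differed by 1.85 ± 0.42 and 2.64 ± 0.70 (SE, adjusted p = 0.0569 and 0.0873), both without overlap.

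All 56 cytosolic ribosomal proteins were negative, with a median of -0.50 and none past the threshold. Their median was 0.01 after quantile normalization and -0.31 after median centring, and 0.33 and -0.64 with the spike-in signal and the GAPDH difference as covariates. Of 40 genes of the mitochondrial respiratory chain none passed, and the median was 0.06. Among markers of other cell types none passed of 12 adipocyte, 6 nerve and Schwann cell and 5 erythrocyte and platelet genes. None passed either of 13 genes of cholesterol synthesis and uptake, 14 of cholesterol efflux, 29 of autophagy and lysosome, 13 of apoptosis or 28 of oxidative stress and heme.

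**Figure D5:**
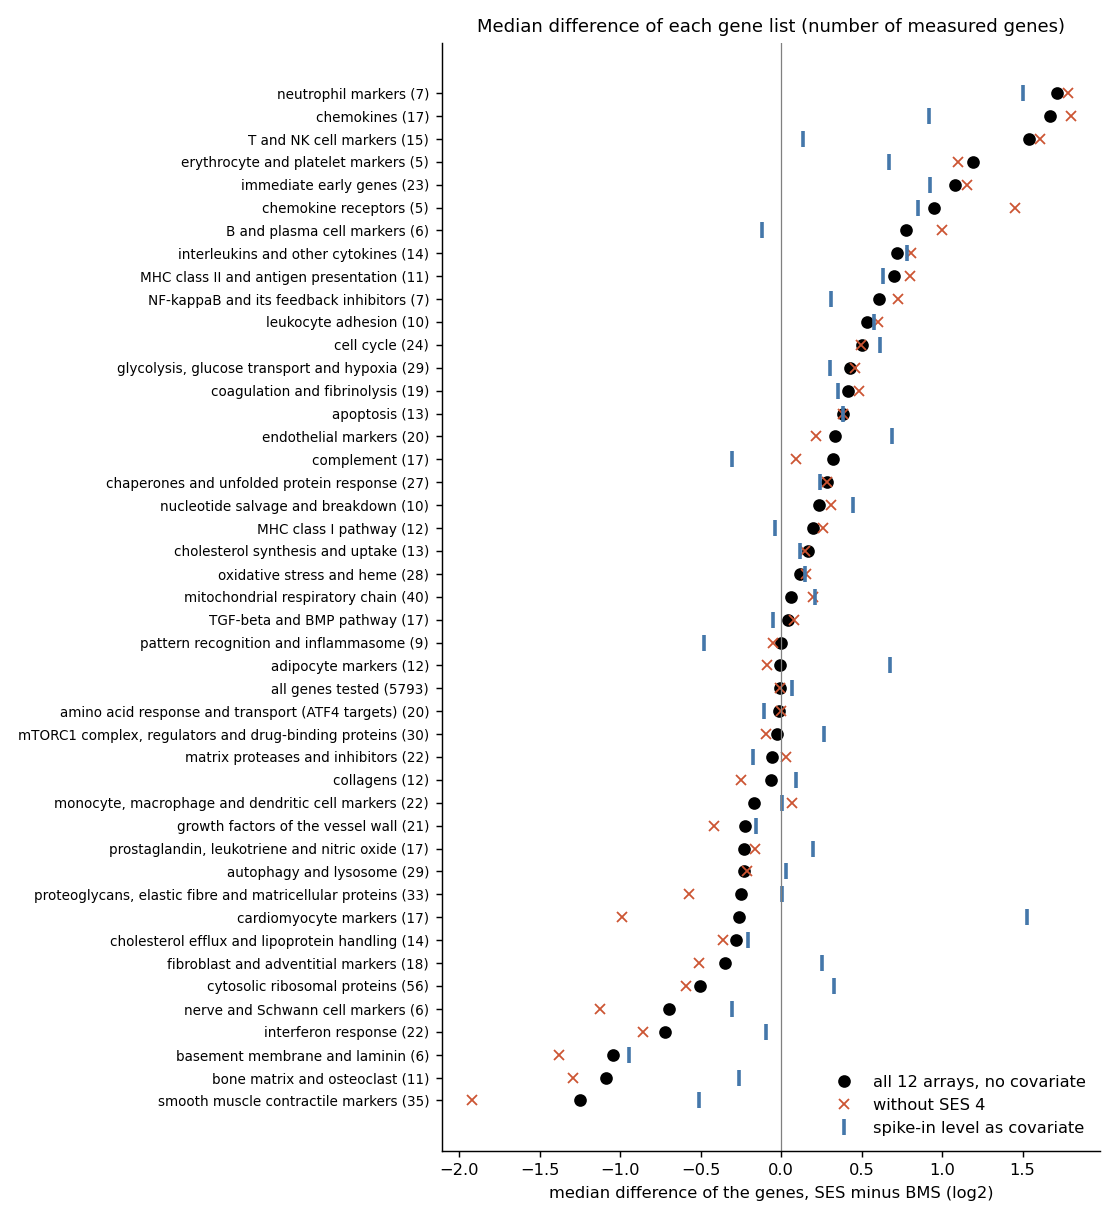
Median SES minus BMS difference (x axis, log2 units) of each gene list (y axis, with the number of measured genes); black points use all 12 arrays without a covariate, crosses leave out SES 4, and blue ticks add the spike-in level to the model. Neutrophil genes at 1.71 and chemokines at 1.67 lie farthest to the right and smooth muscle markers at -1.25 farthest to the left among the black points. Of the 7 neutrophil genes 3 were negative.

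Enzymes and membrane proteins were among the other genes that fell. COASY, which catalyses the last steps of coenzyme A synthesis, measured 14.57, 13.71, 14.15 and 14.32 in BMS and 10.93, 9.73, 11.21 and 13.04 in SES. It fell by 2.96 ± 0.48 (SE), 7.80-fold (adjusted p = 0.0150), while a second, weaker COASY probe set differed by -0.997 ± 0.53 without passing. RNF128, a ubiquitin ligase known from unresponsive T cells, ran from 12.45 to 14.56 in BMS and from 10.77 to 12.43 in SES and fell by 2.49 ± 0.46 (SE, adjusted p = 0.0240). Its second probe set fell by 3.44 ± 0.70 (adjusted p = 0.0299).

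ASPA, which breaks down N-acetylaspartate, and ASL, the urea cycle enzyme argininosuccinate lyase, fell by 3.12 ± 0.62 and 2.47 ± 0.49 (SE, both adjusted p = 0.0290). ASL ran from 7.82 to 8.89 in BMS and from 5.34 to 6.65 in SES, and ASPA from 8.87 to 9.76 and from 4.29 to 7.10, with 3 of the 4 SES values above background. TM4SF1, a membrane protein of endothelium and other cells, fell by 2.38 ± 0.52 (SE, adjusted p = 0.0471), with 12.24 on SES 4 just below the BMS minimum of 12.25.

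PICK1, a membrane-bending scaffold protein, fell by 2.27 ± 0.49 (SE, adjusted p = 0.0437) and was lowest on SES 4, at 6.28 against 8.56 to 8.76 on the other SES arrays. POLR2B, the second-largest subunit of RNA polymerase II, had 4 probe sets with negative differences. The brightest fell by 1.75 ± 0.36 and another by 2.33 ± 0.46 (SE, adjusted p = 0.0358 and 0.0290). The potassium channel KCNQ1 and the smoothelin-like SMTNL2 had wide gaps between the groups without passing (adjusted p = 0.123 and 0.0666). SMTNL2 was not above background in any SES segment and was at least 3.01-fold lower there.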

How the data were processed

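Total RNA of the stented segments was measured on 1-colour arrays. The deposited values are log2 signals that the authors computed by the MAS5 method in Affymetrix Expression Console 5.0, as the submitters' processing notes give it. That they are log2 was read from the values, since the linear trimmed mean was 500.1 to 500.2 on each array. Values listed at 0 were read as a floor, although the labels do not give how low signals were treated. Of 24123 probe sets, 124 controls and then the 30% with the lowest mean were left out. Stents were compared with limma 3.58.1 (R 4.3.3, statmod 1.5.0), with all 12 arrays, the pig as a random block (consensus correlation -0.0322), eBayes with trend, two-sided tests, Benjamini-Hochberg adjustment over 16799 probe sets and a threshold of 0.05. A gene took its probe set with the highest mean. On simulated data for this comparison, 80 of 200 changed probe sets were recovered among 16799, with 8 false calls. The simulated noise was normal and independent between arrays, without pig effects, values at 0 or control differences between the groups. Its false calls therefore do not give the rate of false calls in the real arrays.

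Named genes are the 12 largest called differences in each direction, up to 4 members of each list with the smallest p, CXCL13, CCL5, CCL2, CD3E, FOS and CNN1, the 6 widest gaps between the groups in each direction, and the tissue markers. Outside this rule, UBD, FBP1, CTSC, CCNG2 and STIM2 were named after their values were seen, as were RSF1 and MYOM1 between the SES pigs. The genes, lists and tests were chosen with earlier results of these data known. The number of arrays limits the precision. Segments of 1 pig share the animal, so p-values measure mainly the spread between segments and not between animals. The alternatives covered the samples, the pig term, the artery, filters, scaling and single arrays.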

Additional observations from a re-analysis of the deposited data

Results flagged for a closer look

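In groups of 4 segments, a segment was singled out when its gap to the nearest other one passed Dixon's 95% limit for outlying values. Chance alone does this in about 5% of groups, and 234 groups were looked at for named genes and 98 for array measures, so some of these values would arise by chance.

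SES 4 was set apart most often. It was lower than the other SES segments for CFP (9.50), BTG2 (5.88), KLF4 (9.26), RRM2 (6.04) and PICK1 (6.28), and higher for ITGA8 (12.02), COL4A2 (11.48), LAMB2 (9.54), RNF128 (12.43) and POLR2B (15.46). Its mean level was also higher for smooth muscle contractile markers (11.13) and for heart muscle markers (8.34). In SES, CALCR was lowest on SES 3 (3.90), PTGES highest on SES 2 (10.48), the adipocyte list lowest on SES 2 (7.51) and the list of cholesterol synthesis and uptake apart on SES 1 (7.33).

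In BMS, BMS 1 was lowest for CCL5 (7.48) and HSPA6 (3.48) and highest for SLC38A1 (7.21). BMS 2 had the lowest hybridisation spike-in level (15.74). BMS 3 was lowest for LTB (4.70) and highest for FCER1G (13.07), ACP5 (8.77) and, of the lists, apart for apoptosis (7.56). BMS 4 was lowest for IRF7 (9.16) and the complement list (8.93) and highest for SLC2A3 (10.81), PTGES (9.04) and STEAP4 (7.81).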

How the results depend on the processing

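The count of 114 changed probe sets (83 higher, 31 lower) became 178 with the 8 arrays alone, 64 with means per pig, 64 with the right and 0 with the left coronary segments alone, 19 without the variance trend, 183 without the filter, 199 with a pseudocount of 32 and 673 with array weights. With the spike-in level or the GAPDH difference as covariate, both chosen after seeing the data, it was 0, with 1013 and 1059 at an unadjusted p under 0.05 by limma. With 1 side alone fewer arrays enter, and for the other changes the cause was not tested. It stayed within 1.5 times for arrays taken as independent (89), pig as fixed term (165), side as covariate (128), the lower 50% left out (105), quantile normalization (119) and median centring (85). Leaving out 1 array at a time gave 0 to 415, and 1 pig at a time 1 to 405, the lowest without SES 1 and 2 and the highest without BMS 3 and 4. Of the 52 genes, 29 were still called with means per pig, 46 with the 8 arrays alone and 11 without the trend. The split between higher and lower was 351 to 322 with array weights and 70 to 15 with median centring, which moved the median of all genes to 0.19 (log2). No gene whose difference between the stents is given changed sign under any alternative run. The counts between pigs (6 for SES, 0 for BMS) and for the interaction (0) were the same under theirs. No paired analysis was possible because the segment numbers only name segments and each pig carried 1 stent type.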

Other observations

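The SES pigs differed from each other in a few probe sets with large gaps, which were chosen after their values were seen. RSF1, a chromatin remodelling factor, measured 6.29 and 3.33 in the first SES pig and 12.13 and 12.91 in the second, a difference of 7.71 ± 0.74 (SE, limma adjusted p = 8.8e-04). MYOM1, a protein of the muscle M-band, measured 6.16 and 5.52 in the first and 9.75 and 11.49 in the second, a difference of 4.78 ± 0.64 (SE, limma adjusted p = 0.0154). The other 4 of the 6 probe sets have no single gene symbol. The error of these tests is the spread between 2 segments of 1 pig.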
